A study of Mus musculus with 16 samples.

Results

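The mucin-type glycosylation enzymes were taken by name from the protein-coding genes, as those whose symbols carry the Galnt, Galntl, C1galt1, Gcnt, B3gnt, B4galt, St3gal, St6gal, Fut or Chst stem. The rule found 78 gene models among 54123 genes with a value, of which 21808 are protein-coding. They fall into 19 GalNAc-transferases, 2 core 1 genes, 5 GlcNAc branching enzymes, 8 beta-1,3 GlcNAc-transferases, 7 beta-1,4 galactosyltransferases, 6 alpha-2,3 sialyltransferases, 9 alpha-2,6 sialyltransferases, 8 fucosyltransferases and 14 sulfotransferases. St6galnac2 carries a second gene model, ENSMUSG00000110170, inside its own span on the same strand, so the reads of the pair could be divided between them in either way.

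RNA was sequenced from 16 libraries of mouse colon organoids, 3-dimensional cultures of gut epithelium grown from adult stem cells. The 8 groups of 2 libraries each combined the region of origin (proximal or distal colon), the guide (Scramble-sgRNA, a control, or Cdx2-sgRNA, against the homeobox factor of intestinal identity Cdx2) and the medium (WENR-plus or WENR-minus) of the last 3 days. WENR-minus left out the niche factors Wnt3a, EGF, Noggin and R-spondin 1. The colons came from 8-week-old female mice, 2 of them independent, and the proximal and distal organoids were taken from the first and last 1.0 cm. All groups shared a heterozygous Cre-inducible BrafV600E allele (B6.129P2(Cg)-Braftm1Mmcm/J) and a heterozygous Cre-inducible tdTomato reporter, with no Cre given, together with lentiviral Cas9, 2 weeks of blasticidin and culture into month 4. Each Cdx2-sgRNA line was a clone expanded from 1 cell with frameshifts on both alleles, and no such step is described for Scramble-sgRNA, so that the guide cannot be told apart from a clone's own features.

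Mucin-type O-glycosylation starts in the Golgi, where a polypeptide GalNAc-transferase puts GalNAc on a serine or threonine of a mucin. C1galt1, with its chaperone C1galt1c1, adds galactose to make core 1, Gcnt enzymes branch it with GlcNAc, and B3gnt6 makes the alternative core 3 that is typical of the colon. Chains are then lengthened by B3gnt and B4galt enzymes in turn and capped with sialic acid, fucose or sulfate, and these glycans give the colon's mucus gel its charge and its resistance to bacteria. Some genes taken by name act elsewhere: Fut8 on N-glycan cores, B3gnt5 on lacto-series glycolipids, B4galt7 on the proteoglycan linker, and Chst11, Chst12, Chst14 and Chst15 on chondroitin or dermatan sulfate.

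Of the 78 members, 53 passed the filter on low counts. The other 25 had at most 27 reads in any library, reached by Fut10 at 1.43 CPM (the count scaled to the library's normalised total). Of these, 14 had no more than 3 reads in every library, and 5 (Chst5, Galnt17, Galntl5, St6galnac3 and St6galnac5) had none. Chst5, a GlcNAc 6-O-sulfotransferase, was thus at 0 CPM throughout, and St6galnac1, the sialyltransferase of the sialyl-Tn antigen, lay between 0 and 0.269 CPM. A call needed an edgeR quasi-likelihood adjusted p below 0.05 (Benjamini-Hochberg over 15289 genes) and a log2 fold change beyond 1 in either direction, and 41 of the 53 tested members were called in at least 1 of 12 comparisons between groups, beside 59.1% of all genes tested.

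Compared per length, as the deposited TPM (the authors' length-normalised values, summed to genes), St3gal4 had the highest median over the 16 libraries, at 179 TPM. It was followed by Galnt3 at 142 TPM, B4galt5 at 121 TPM, Galnt7 at 108 TPM, Fut2 at 100 TPM and C1galt1 at 91 TPM. These medians pool groups that differ: St3gal4 was at 54.4 to 94.6 TPM in proximal Cdx2-sgRNA libraries and 1303 to 1647 TPM in distal WENR-minus ones. In proximal Cdx2-sgRNA WENR-minus Gcnt3 (225 and 233 TPM) and Galnt3 (126 and 136 TPM) lay above St3gal4 (54.4 and 59.2 TPM), and B4galt5 was at 13 and 8.42 TPM. The core 3 branch was low in these libraries. B3gnt6, its synthase, had 0.908 and 0.769 CPM in the proximal Scramble-sgRNA WENR-plus libraries, 1.7 and 0.0538 CPM in the distal ones, and at most 0.159 CPM in any Cdx2-sgRNA library. It was called in none of the comparisons. Over 307 pairs of replicate values above 5 CPM the median ratio between the 2 libraries was 1.26, with 51 pairs beyond 2 and 12 beyond 5. The study describes the replicates as organoids of independent mice, and the labels number them 1 and 2 without saying that a number stands for the same mouse in every group.

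**Figure D1:**
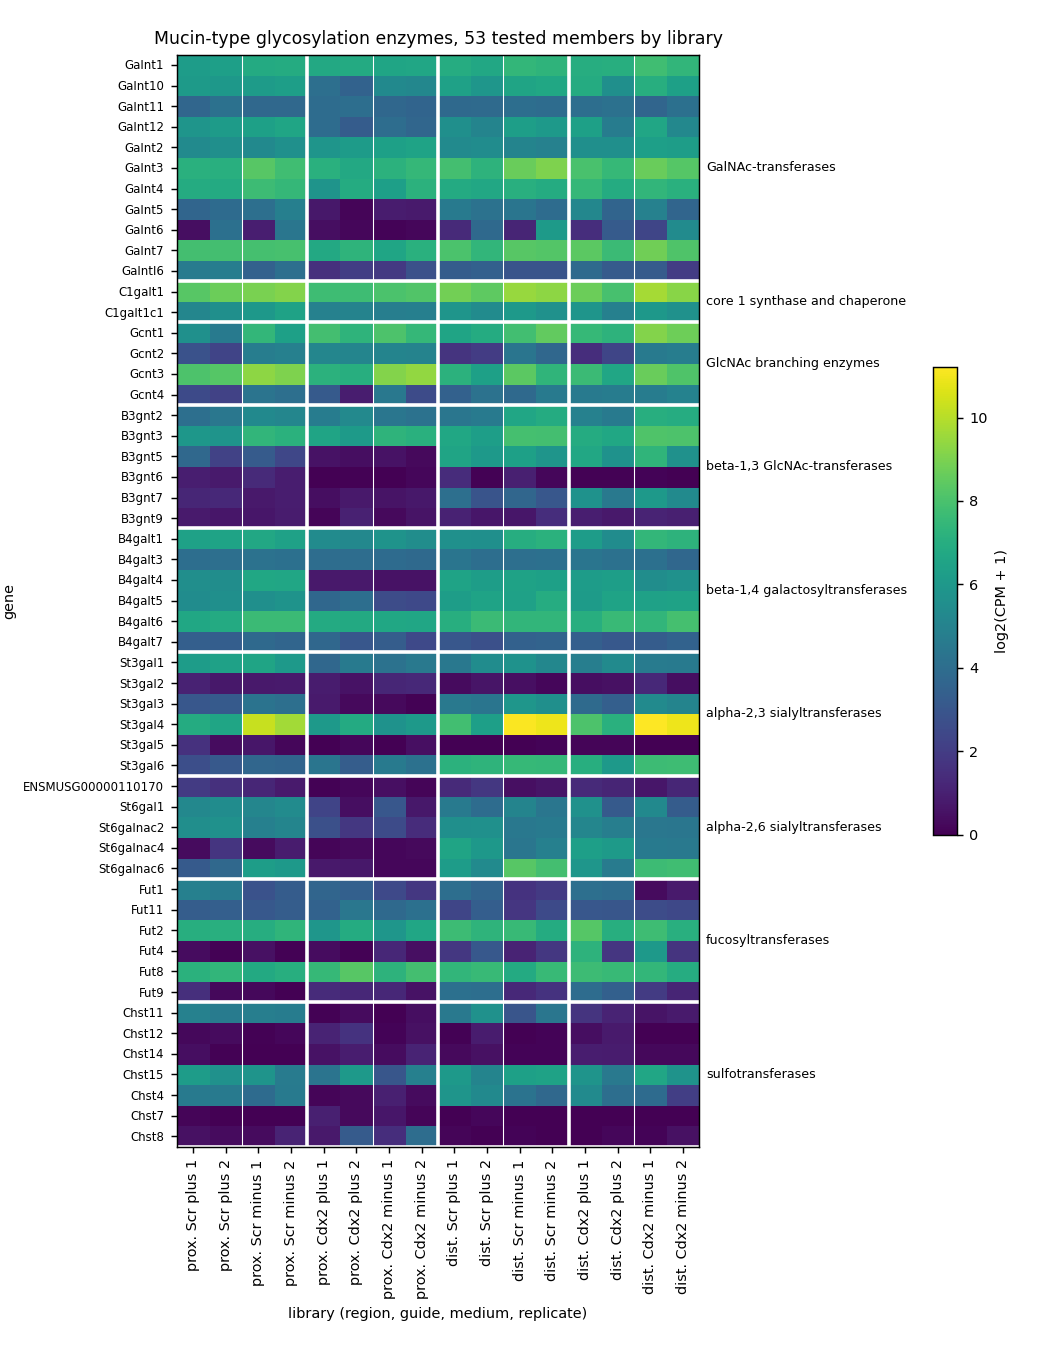
Level of the 53 tested members (rows, by enzyme class) in each of the 16 libraries (columns), as log2(CPM + 1). The alpha-2,6 sialyltransferases and B4galt4 are dark in the 4 proximal Cdx2-sgRNA libraries, where B4galt4 lies between 0.445 and 0.696 CPM, and St3gal4 is brightest in the distal WENR-minus libraries, where it lies between 1954 and 2386 CPM.

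Library totals lay between 12465194 and 18922143 estimated reads, and mitochondrial rRNA took 15.4 to 28% of them. Within each medium its share was higher in both proximal Cdx2-sgRNA libraries (WENR-plus 28 and 23.4%, WENR-minus 22.4 and 20.4%) than in the proximal Scramble-sgRNA ones (15.4 and 21.2%, 17.6 and 17.9%), and its part in the results was not tested. Cdx2 mRNA, which frameshifts need not remove, was at 127 to 203 CPM in proximal Scramble-sgRNA libraries and 29.9 to 73.9 CPM in proximal Cdx2-sgRNA ones, against 67.9 to 112 and 50.2 to 126 CPM in the distal libraries. Epithelial markers (7 genes) summed to 3916 to 17692 CPM in the libraries, while fibroblast, endothelial and immune markers summed to at most 1.12, 2 and 10.2 CPM. In the proximal Cdx2-sgRNA libraries the 9 goblet cell markers summed to 38.3 to 74.2 CPM, against 898 to 7559 CPM in proximal Scramble-sgRNA libraries. The 4 enteroendocrine markers summed to 0.74 to 1.86 CPM, against 63.4 to 176 CPM. The 3 tuft markers summed to 1.11 to 11.3 CPM, against at most 0.414 CPM. In WENR-minus the 8 colonocyte markers summed to 520 and 1591 CPM with Cdx2-sgRNA, against 10151 and 6854 CPM. Of that sum Krt20 took 489 and 1572 CPM, against 995 and 580 CPM. Each other colonocyte marker was lower in both Cdx2-sgRNA libraries, such as Car1 at 19.9 and 11.4 CPM against 8710 and 5952 CPM. In WENR-plus Krt20 was at 104 and 213 CPM, against 25.9 and 20.3 CPM. In bulk RNA, fewer cells of a type and less RNA per cell cannot be told apart, and the part of these markers in the results was not tested.

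The first comparison asks which enzymes differ after editing of Cdx2. In proximal organoids with Cdx2-sgRNA the GalNAc-transferases Galnt5, Galnt12 and Galntl6, the galactosyltransferases B4galt4 and B4galt5, the sialyltransferases St3gal1, St3gal3, St6galnac2 and St6galnac6, and the sulfotransferases Chst4 and Chst11 fell in both media. The 2 media were given to the same cultures, so a fall in both is not 2 independent results. In WENR-minus 17 of 53 members fell and 1 rose, beside 12.1% of all genes tested that fell and 9.04% that rose. In WENR-plus 17 fell and 3 rose, beside 8.94% and 6.93%. The members' median log2 fold change was -0.94 in WENR-minus and -0.54 in WENR-plus, against -0.00033 and -0.05 over all genes tested. In distal organoids 2 fell and 2 rose in WENR-minus (3% and 2.24% of all genes), and 1 fell and 0 rose in WENR-plus (0.124% and 0.137%). A minimum of 10 reads in every library leaves untested any member near 0 in a group, such as B4galt4, Chst4 and Chst11. With it the 18 and 20 proximal calls became 8 and 10, and the 4 and 1 distal calls 1 and 0. Over all comparisons it kept 90 of the 93 calls that it could test, and 103 had no value. With no filter the distal WENR-plus count was 3. The count for distal WENR-minus was 1 without the Scramble-sgRNA replicate 2 or the Cdx2-sgRNA replicate 1 library. The distal WENR-plus count was 0 without Scramble-sgRNA replicate 2 or either Cdx2-sgRNA library. The comparisons of one region share no library between media, and 13 of the 18 proximal WENR-minus calls and 16 of the 20 WENR-plus calls held whichever of the libraries compared was left out.

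Among the GalNAc-transferases, Galnt5 was at 11.7 and 14 CPM in proximal Scramble-sgRNA WENR-plus and 16.2 and 27.8 CPM in WENR-minus, and at 0.638, 0.106, 0.817 and 0.74 CPM in the 4 proximal Cdx2-sgRNA libraries. The groups did not overlap, and distal Cdx2-sgRNA libraries held 11.1 to 35.4 CPM. The log2 fold change was -4.82 ± 0.73 (SE, edgeR adjusted p = 0.000566) in WENR-minus and -5.11 ± 0.78 (edgeR adjusted p = 0.000969) in WENR-plus. Galnt12, a GalNAc-transferase made in the colon, was at 57.1, 70.9, 81.2 and 96.7 CPM in proximal Scramble-sgRNA and 14.6, 8.67, 14.9 and 11.9 CPM in proximal Cdx2-sgRNA, a fall of 2.73 ± 0.55 in WENR-minus (edgeR adjusted p = 0.00352) on the log2 scale. In distal organoids it was at 47.3, 32.4, 78.2 and 64.4 CPM with Scramble-sgRNA and 81.3, 25.4, 98.7 and 36.5 CPM with Cdx2-sgRNA, which overlap. Galntl6 fell in both media (log2 fold changes -1.62 and -3.32), Galnt7 in WENR-minus (-1.06) and Galnt10 in WENR-plus (-2.31). Of these, Galnt7, and Galntl6 in WENR-minus, were no longer called without the Cdx2-sgRNA replicate 1 library (edgeR adjusted p = 0.165 and 0.155, of ranges up to these values over their alternatives), and Galnt12 in WENR-plus was not without Cdx2-sgRNA replicate 2 (0.0704).

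Galnt7, which extends already glycosylated peptides, was at 233, 232, 243 and 249 CPM in proximal Scramble-sgRNA, 107, 156, 94.9 and 140 CPM in proximal Cdx2-sgRNA, 264, 168, 318 and 293 CPM in distal Scramble-sgRNA and 339, 201, 446 and 283 CPM in distal Cdx2-sgRNA (in each case both WENR-plus libraries, then both WENR-minus libraries, an order kept below). Galnt1, which acts on many substrates, was at 71.9, 79.8, 114 and 119 CPM in proximal Scramble-sgRNA and 109, 114, 94.7 and 97.7 CPM in proximal Cdx2-sgRNA, and at 121, 105, 172 and 155 CPM and 127, 130, 217 and 168 CPM in the distal groups. Its log2 fold changes for Cdx2-sgRNA lay between -0.28 and 0.56 and none was called. Galnt2 rose in distal WENR-minus organoids, from 32.3 and 29.2 to 78.6 and 74.9 CPM (log2 fold change 1.32 ± 0.15, edgeR adjusted p = 0.00143), a call that held without each library. In distal WENR-plus it was at 40.8 and 42.4 CPM with Scramble-sgRNA and 46.7 and 46.4 CPM with Cdx2-sgRNA. In proximal organoids Galnt2 was at 40.3, 47.5, 38.6 and 48.2 CPM with Scramble-sgRNA and 57.6, 70.8, 81.1 and 90.3 CPM with Cdx2-sgRNA, all above the control, with log2 fold changes of 0.55 and 0.98 that did not reach the threshold of 1.

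At core 1, the chaperone C1galt1c1 was at 34.5, 47.5, 62.1 and 88.6 CPM in proximal Scramble-sgRNA and at 29.2, 31.2, 26.8 and 27.5 CPM in proximal Cdx2-sgRNA. It fell in WENR-minus by 1.47 ± 0.31 on the log2 scale (edgeR adjusted p = 0.0045). Distal libraries had 56.2, 42.2, 64.7 and 50.7 CPM with Scramble-sgRNA and 57.4, 28.4, 63 and 50.9 CPM with Cdx2-sgRNA. The core 1 synthase itself, C1galt1, was at 311, 416, 504 and 563 CPM in proximal Scramble-sgRNA and 210, 212, 262 and 286 CPM in proximal Cdx2-sgRNA, with log2 fold changes of -0.78 and -0.96 that stayed short of the fold threshold though their adjusted p were 0.041 and 0.0137 (edgeR). Distal C1galt1 was at 454, 350, 722 and 637 CPM with Scramble-sgRNA and 413, 247, 829 and 597 CPM with Cdx2-sgRNA.

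No GlcNAc branching enzyme was called lower in a Cdx2 comparison. Gcnt1, a core 2 branching enzyme, was at 48.2 and 23.5 CPM in proximal Scramble-sgRNA WENR-plus and 232 and 155 CPM in Cdx2-sgRNA WENR-plus, a rise of 2.43 ± 0.44 (log2, edgeR adjusted p = 0.00261). Gcnt2, which branches the I antigen, was at 6.02 and 3.96 CPM and 34.4 and 33 CPM in the same groups, a rise of 2.75 ± 0.34 (edgeR adjusted p = 0.000278). Both calls held without each library, and in WENR-minus neither gene was called (log2 fold changes 0.81 and 0.20). Gcnt3, the mucin-type enzyme for core 2 and core 4, was at 271, 308, 637 and 524 CPM in proximal Scramble-sgRNA and 148, 132, 569 and 667 CPM in proximal Cdx2-sgRNA, with log2 fold changes of -1.05 (edgeR adjusted p = 0.0783) and 0.091. Gcnt4 was at 4.73, 3.67, 18.9 and 16.2 CPM against 8.06, 0.846, 21.8 and 4.92 CPM, where the Cdx2-sgRNA replicates lay far apart. In distal organoids Gcnt3 was at 147, 81.5, 340 and 161 CPM against 198, 98.1, 400 and 280 CPM, and Gcnt4 was at 10.3, 17.7, 13.4 and 23.7 CPM against 23, 25, 25 and 30.7 CPM, with no call.

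Among the chain-lengthening enzymes, B4galt4, a beta-1,4 galactosyltransferase known to work on sulfated GlcNAc (ENSMUSG00000022793, GRCm38 chr16:38742264-38769049), had the smallest adjusted p of the members in proximal organoids. Proximal Scramble-sgRNA libraries had 45.2, 44.5, 103 and 98.8 CPM, and proximal Cdx2-sgRNA libraries 0.696, 0.687, 0.445 and 0.476 CPM. Distal libraries had 89.8, 74.4, 86.2 and 81.1 CPM with Scramble-sgRNA and 72.2, 77, 44.8 and 50.3 CPM with Cdx2-sgRNA. The groups did not overlap in proximal organoids of either medium. The proximal log2 fold change was -7.74 ± 0.18 (SE, edgeR adjusted p = 1.28e-09) in WENR-minus and -6.00 ± 0.17 (edgeR adjusted p = 8.71e-09) in WENR-plus, and the distal ones were -0.81, short of the fold threshold (edgeR adjusted p = 0.00457), and -0.14 (edgeR adjusted p = 0.968).

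B4galt5, which makes lactosylceramide, was at 42.3, 47.3, 47.2 and 53.9 CPM in proximal Scramble-sgRNA and 12.5, 15.5, 5.05 and 4.5 CPM in proximal Cdx2-sgRNA, and at 75.5, 90.5, 84.3 and 123 CPM and 70.1, 91, 85 and 86.5 CPM in distal organoids. It fell by 3.41 ± 0.23 in WENR-minus (log2, edgeR adjusted p = 1.74e-06) and by 1.67 ± 0.21 in WENR-plus (edgeR adjusted p = 0.000255). B4galt1, the main enzyme of lactosamine synthesis, was at 86, 90.1, 104 and 84 CPM in proximal Scramble-sgRNA and 42, 36.7, 54 and 43.9 CPM in proximal Cdx2-sgRNA, and fell in WENR-plus (log2 fold change -1.16 ± 0.22, edgeR adjusted p = 0.00351). In distal organoids it was at 48.3, 46.7, 126 and 144 CPM with Scramble-sgRNA and 72.9, 43.1, 169 and 150 CPM with Cdx2-sgRNA. Of the B3gnt enzymes, B3gnt5 was at 12.8, 3.61, 8.37 and 4.27 CPM in proximal Scramble-sgRNA and 0.464, 0.317, 0.445 and 0.212 CPM in proximal Cdx2-sgRNA, log2 fold changes of -4.39 ± 0.88 and -4.30 ± 0.95 (edgeR adjusted p = 0.00475 and 0.00573). The WENR-minus call was lost without Cdx2-sgRNA replicate 2 (edgeR adjusted p = 0.0659). B3gnt3, which extends core 1, was not called in any Cdx2 comparison, with 60.5, 55.3, 165 and 141 CPM against 93.9, 69.1, 157 and 137 CPM in proximal organoids and 103, 78.2, 241 and 236 CPM against 117, 101, 283 and 272 CPM in distal ones. B3gnt7, a keratan sulfate enzyme, rose in distal WENR-minus from 12.2 and 7.31 to 63.6 and 40.6 CPM (log2 fold change 2.42 ± 0.50, edgeR adjusted p = 0.0148, up to 0.133 without Scramble-sgRNA replicate 2).

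**Figure D2:**
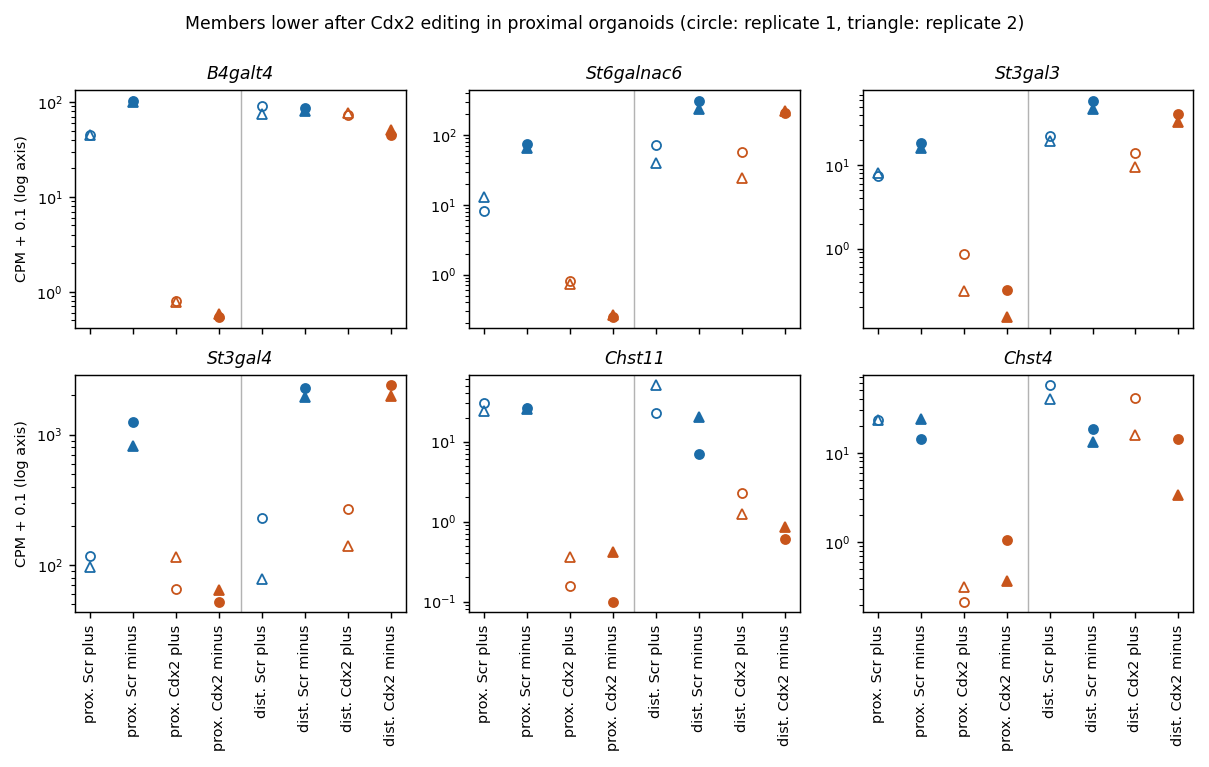
Level in each library (CPM + 0.1, log axis) of 6 members that fell after Cdx2 editing in proximal organoids; blue is Scramble-sgRNA, orange Cdx2-sgRNA, open symbols WENR-plus, filled symbols WENR-minus, and a vertical line parts proximal from distal libraries. B4galt4 falls from 44.5 to 103 CPM to at most 0.696 CPM in proximal organoids, whereas Chst11 is lower in Cdx2-sgRNA libraries of both regions.

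Several sialyltransferases fell as well. St6galnac6 (ENSMUSG00000026811), an alpha-2,6 sialyltransferase of gangliosides and disialyl Lewis a, was at 8.08, 13, 73.8 and 66 CPM in proximal Scramble-sgRNA and 0.696, 0.635, 0.148 and 0.159 CPM in proximal Cdx2-sgRNA. Distal libraries had 72.1, 40.3, 313 and 236 CPM with Scramble-sgRNA and 58.2, 24.2, 205 and 221 CPM with Cdx2-sgRNA. Both proximal Cdx2-sgRNA WENR-minus libraries held no more than 3 reads, so the difference there was at least 296-fold lower (edgeR adjusted p = 3.29e-06), and in WENR-plus the log2 fold change was -3.97 ± 0.50 (edgeR adjusted p = 0.000302). St3gal3, an alpha-2,3 sialyltransferase, was at 7.22, 7.93, 18.2 and 16.1 CPM in proximal Scramble-sgRNA and 0.754, 0.212, 0.223 and 0.0529 CPM in proximal Cdx2-sgRNA, at least 72.1-fold lower in WENR-minus (edgeR adjusted p = 4.5e-06). In distal organoids it was at 22.4, 19.5, 59 and 46.9 CPM against 13.7, 9.42, 40.4 and 32.5 CPM, lower in each Cdx2-sgRNA library of a medium but not called.

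St3gal4, the sialyltransferase with the highest median TPM over the 16 libraries, differed with the medium. Proximal Scramble-sgRNA organoids had 117 and 96.6 CPM in WENR-plus and 1250 and 823 CPM in WENR-minus, while proximal Cdx2-sgRNA organoids had 65.5, 115, 52.3 and 64.3 CPM. Distal organoids had 229, 78.6, 2276 and 1954 CPM with Scramble-sgRNA and 269, 140, 2386 and 1973 CPM with Cdx2-sgRNA. The log2 fold change for proximal Cdx2-sgRNA was -4.15 ± 0.52 in WENR-minus (edgeR adjusted p = 0.000161) and -0.24 ± 0.46 in WENR-plus (edgeR adjusted p = 0.737). St3gal1, which caps core 1, was at 73.6, 84.4, 92.6 and 63.8 CPM in proximal Scramble-sgRNA and 12.4, 23.8, 17.8 and 22.4 CPM in proximal Cdx2-sgRNA, and fell in both media (log2 fold changes -2.12 ± 0.39 and -1.96 ± 0.38, edgeR adjusted p = 0.00271 and 0.00291). Distal St3gal1 was at 21.3, 42.8, 52.1 and 35.8 CPM against 27, 40.3, 24.8 and 23.1 CPM. St6galnac2, which acts on Tn and core 1 antigens, fell in both media (log2 fold changes -3.53 and -3.25), and so did its second gene model (at least 11.2-fold lower in WENR-plus, and -2.12 in WENR-minus, the latter lost without Cdx2-sgRNA replicate 2, edgeR adjusted p = 0.254). St6gal1, which sialylates N-glycans, was at 36.5, 42.3, 34.1 and 42.2 CPM in proximal Scramble-sgRNA but 3.94, 0.317, 7.27 and 0.635 CPM in proximal Cdx2-sgRNA, where replicate 1 lay well above replicate 2. It fell in WENR-plus (log2 fold change -4.22 ± 1.24, edgeR adjusted p = 0.0294, up to 0.146 without Cdx2-sgRNA replicate 2), and in distal organoids it was at 23.1, 14.7, 32.3 and 20.2 CPM against 49.7, 7.99, 38.8 and 8.53 CPM. Per length, the alpha-2,6 class summed to 56.3, 65.6, 92.2 and 96.7 TPM in proximal Scramble-sgRNA and 6.8, 2.37, 7.25 and 1.51 TPM in proximal Cdx2-sgRNA. St3gal6 rose in proximal WENR-plus (log2 fold change 1.11 ± 0.37, edgeR adjusted p = 0.0468, up to 0.417 without Cdx2-sgRNA replicate 1).

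Of the fucosyltransferases, Fut1, an H antigen enzyme, was the one that fell. It was at 28.8, 23.5, 6.13 and 8.55 CPM in proximal Scramble-sgRNA and 11.5, 9.73, 4.53 and 2.54 CPM in proximal Cdx2-sgRNA (log2 fold changes -1.30 and -1.07), and at 15.6, 11.1, 2.15 and 2.72 CPM against 16.2, 14.8, 0.254 and 0.753 CPM in distal organoids, where it fell in WENR-minus (-2.26). Each of these 3 calls was lost without 1 or more libraries, with edgeR adjusted p up to 0.116, 0.248 and 0.0982. Fut2, the secretor enzyme of mucosal surfaces, was called in no comparison, with 131, 135, 127 and 163 CPM in proximal Scramble-sgRNA, 57.7, 120, 59.4 and 98.9 CPM in proximal Cdx2-sgRNA, 207, 156, 190 and 120 CPM in distal Scramble-sgRNA and 310, 130, 215 and 134 CPM in distal Cdx2-sgRNA. Fut8 was called in none either, at 144, 165, 110 and 132 CPM, 181, 314, 152 and 233 CPM, 168, 190, 116 and 185 CPM, and 203, 188, 170 and 122 CPM in the same order.

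Among the sulfotransferases, Chst11 (ENSMUSG00000034612, chr10:82985498-83195900), a chondroitin 4-O-sulfotransferase, fell in both regions. It was at 29.9, 24.1, 26.5 and 25.3 CPM in proximal Scramble-sgRNA and 0.058, 0.264, 0 and 0.317 CPM in proximal Cdx2-sgRNA, and at 22.5, 50.3, 6.85 and 20.2 CPM against 2.18, 1.16, 0.508 and 0.753 CPM in distal organoids. The log2 fold changes were -7.29 ± 0.86 and -7.11 ± 0.86 in proximal WENR-plus and WENR-minus (edgeR adjusted p = 0.000187 and 0.000128), and -4.45 ± 0.67 and -4.41 ± 0.75 in distal organoids (edgeR adjusted p = 0.0225 and 0.00718). The distal calls each held in 1 of 4 fits that left out a library, with adjusted p up to 0.231 and 0.0589 (edgeR). Chst4, which sulfates GlcNAc of mucin O-glycans, was at 22.9, 22.9, 14.1 and 23.6 CPM in proximal Scramble-sgRNA and 0.116, 0.212, 0.965 and 0.264 CPM in proximal Cdx2-sgRNA (log2 fold changes -7.05 ± 0.93 and -5.02 ± 0.80, edgeR adjusted p = 0.000382 and 0.000797). Distal Chst4 was at 56.6, 39.4, 18.5 and 13 CPM against 40.8, 15.6, 14 and 3.26 CPM. Chst14 rose in proximal WENR-minus, but only from 0 reads in both Scramble-sgRNA libraries to 0.297 and 1.16 CPM, at least 1.6-fold higher.

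Whether Cdx2 editing acted unequally in the 2 regions was tested as a difference of the log2 fold changes. In WENR-minus 16 members were called, all with a lower value in proximal organoids, beside 14.3% of all genes called in either direction. In WENR-plus 15 were lower and 1 (Gcnt2) was higher, beside 4.98%. The members' median difference was -1.0 and -0.77, against 0 and -0.035 over all genes. B4galt4 had the smallest adjusted p of the members in both media (differences -6.93 ± 0.22 and -5.86 ± 0.21, edgeR adjusted p = 1.04e-08 and 1.08e-07). B4galt5, Galnt5, St3gal3 and St6galnac6 were also called in both media, whichever of the 8 libraries was left out. Chst11, which fell in both regions, was not called for a difference between them (-2.70 ± 1.21 and -2.84 ± 1.09, edgeR adjusted p = 0.15 and 0.158). The 16 calls in each medium became 27 and 27 with no filter on low counts. With at least 10 reads in every library they became 8 and 8, but members near 0 in a group were then untested. The counts also depended on single libraries: in WENR-minus it was 8 and 7 without the proximal Scramble-sgRNA replicate 1 and Cdx2-sgRNA replicate 2 libraries, and 10, 7 and 10 without distal Scramble-sgRNA replicates 1 and 2 and Cdx2-sgRNA replicate 1. In WENR-plus it was 10 without proximal Scramble-sgRNA replicate 1, 7 without distal Scramble-sgRNA replicate 2 and 10 without distal Cdx2-sgRNA replicate 1.

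**Figure D3:**
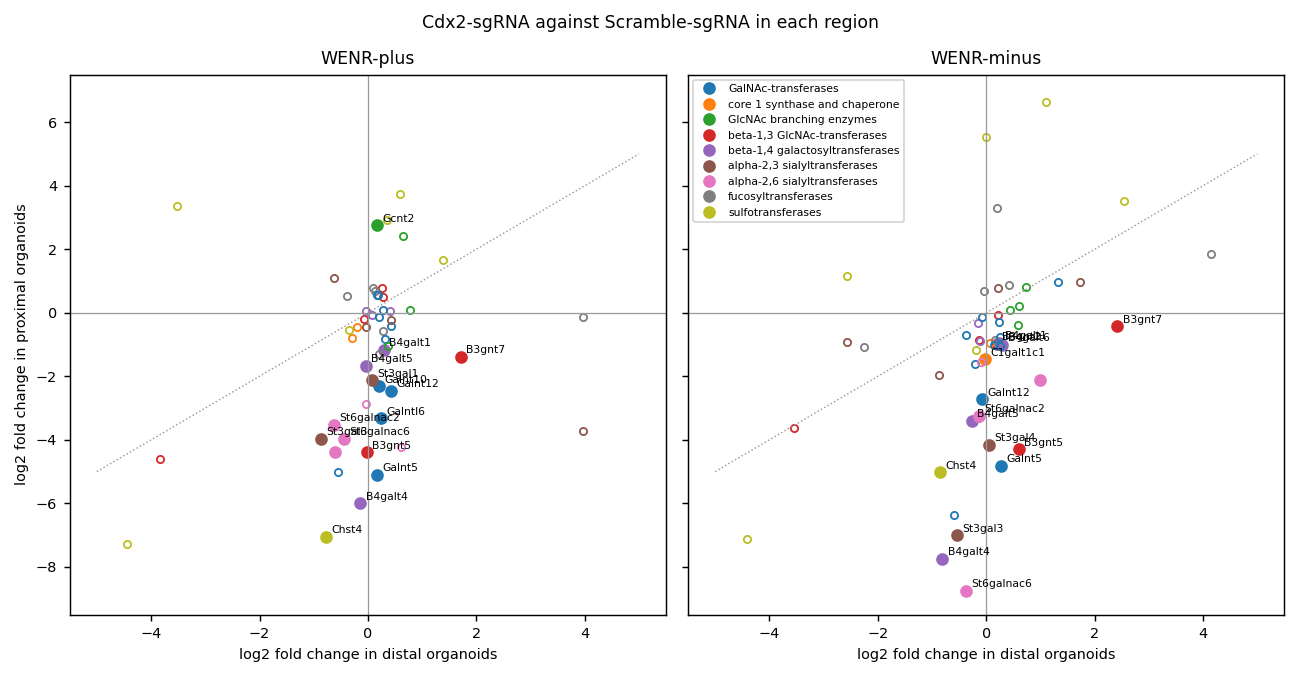
Log2 fold change for Cdx2-sgRNA against Scramble-sgRNA in distal (x axis) and proximal (y axis) organoids, for each tested member within the axes, in WENR-plus (left) and WENR-minus (right); colours give the class, filled points the members called for a difference between regions, and the dotted line equal values. Most filled points lie near 0 on the x axis and below 0 on the y axis, down to a fitted -8.76 for St6galnac6, while Chst11 lies low on both axes near -7 and -4.

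Upstream sequence is shown for members that fell in proximal organoids of both media and whose reads came almost wholly from 1 start site, together with St3gal4, because these are the losses the comparison turns on. Of the 14 members lower in both media, 10 had an entry in the RefSeq promoter table of GRCm38.p6, and 58 of all 78 members had one. Each stretch covers the 200 bases from 250 to 51 bases before the start site, 5′ to 3′ along the gene, with CG dinucleotides in capitals. They lie at chr10:82985247-82985446 (plus strand), chr16:38742009-38742208 (plus strand), chr4:118134997-118135196 (minus strand) and chr9:35116915-35117114 (minus strand), and transcripts starting within 100 bases of the site took 100, 99.6, 98.1 and 97.2% of each gene's reads.
Chst11: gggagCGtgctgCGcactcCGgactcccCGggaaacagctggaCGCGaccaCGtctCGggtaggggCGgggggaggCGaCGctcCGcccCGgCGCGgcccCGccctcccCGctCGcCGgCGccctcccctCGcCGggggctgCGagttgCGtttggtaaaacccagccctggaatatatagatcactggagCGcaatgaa
B4galt4: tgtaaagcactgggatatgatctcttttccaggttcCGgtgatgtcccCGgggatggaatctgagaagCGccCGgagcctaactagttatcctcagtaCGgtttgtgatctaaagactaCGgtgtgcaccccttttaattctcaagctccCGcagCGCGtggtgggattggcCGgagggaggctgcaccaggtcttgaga
St3gal3: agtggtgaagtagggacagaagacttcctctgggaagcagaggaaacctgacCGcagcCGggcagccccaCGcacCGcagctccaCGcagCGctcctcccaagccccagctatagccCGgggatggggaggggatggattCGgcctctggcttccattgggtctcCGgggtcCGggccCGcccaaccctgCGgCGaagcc
St3gal4: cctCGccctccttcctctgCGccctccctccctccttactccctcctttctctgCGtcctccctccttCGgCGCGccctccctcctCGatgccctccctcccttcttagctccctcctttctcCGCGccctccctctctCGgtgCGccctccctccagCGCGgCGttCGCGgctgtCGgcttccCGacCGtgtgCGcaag

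These stretches held 25, 10, 13 and 20 CG dinucleotides, against a median of 4 over 32851 promoters of the table. The letters TTTAT, the core of the Cdx2 binding motif, searched on both strands, were in none of the 4 stretches. They were in 2 of the 10 members with a stretch (Chst4 and Galntl6), in 8 of 28 other tested members and in 31.6% of all promoters. The longer TTTATGG, which contains it, was in 0 of the 10, 0 of the 28 and 1.99% of all. TATAAA, which on its other strand contains TTTAT, was in 1 of the 10, 1 of the 28 and 9.14% of all. Only these stretches were searched, so the counts say nothing of Cdx2 binding elsewhere. The paper mapped Cdx2 binding and placed most sites in introns or between genes.

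The second comparison sets proximal against distal organoids under the same guide and medium. In Scramble-sgRNA organoids the calls were nearly all lower in the proximal colon: 9 of 53 members were lower and 1 higher in WENR-minus (3.2% and 2.88% of all genes), and 7 lower and 0 higher in WENR-plus (1.07% and 0.68%). The 10 and 7 calls became 19 and 16 with no filter on low counts. With at least 10 reads in every library, which leaves members near 0 in a group untested, they became 3 and 1. The members' medians were -0.081 and -0.25, against 0.075 and 0.0049 over all genes. In Cdx2-sgRNA organoids 26 were lower and 3 higher in WENR-minus (16.5% and 18.1%), and 21 lower and 2 higher in WENR-plus (9.57% and 7.4%), with medians of -1.2 (-1.1 with members at the 3-read floor set to their bound) and -0.84 against 0.13 and -0.0058. With at least 10 reads in every library the 29 and 23 calls became 15 and 9, again with members near 0 in a group untested. These comparisons use the same libraries as the Cdx2 comparisons above.

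St6galnac4, a sialyltransferase of the sialyl-T antigen, had the largest log2 fold change of the members called in Scramble-sgRNA organoids. Its proximal Scramble-sgRNA libraries were at 0.239, 2.37, 0.248 and 0.834 CPM and its distal ones at 91.8, 61.4, 19.9 and 29 CPM, and the Cdx2-sgRNA libraries were at 0.116, 0.212, 0.148 and 0.212 CPM against 79.8, 69, 23.5 and 22.4 CPM. The log2 fold change of proximal against distal Scramble-sgRNA was -5.43 ± 0.71 in WENR-minus and -5.93 ± 0.68 in WENR-plus (edgeR adjusted p = 0.0013 and 0.000992), and both calls held without each library. In the GENCODE vM21 annotation of GRCm38, St6galnac4 (chr2:32587095-32599698) and St6galnac6 (chr2:32599709-32620806) follow one another on the plus strand. St6galnac6 was also lower in proximal Scramble-sgRNA organoids (log2 fold changes -1.97 and -2.42, with edgeR adjusted p up to 0.0859 and 0.135 when a library was left out). St3gal6 (chr16:58468125-58524243), an alpha-2,3 sialyltransferase, was at 5.4, 7.69, 12.2 and 11.2 CPM in proximal and 145, 155, 181 and 179 CPM in distal Scramble-sgRNA libraries, differences of -3.95 ± 0.39 and -4.52 ± 0.40 (edgeR adjusted p = 0.000236 and 0.000175), which also held without each library. In Cdx2-sgRNA organoids St3gal6 was at 19.3, 8.99, 23.1 and 17 CPM against 129, 65.9, 206 and 211 CPM.

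Of 6 tested B3gnt members, 3 were called lower in proximal Scramble-sgRNA WENR-minus and 2 in WENR-plus, beside 3.2% and 1.07% of all genes. B3gnt7 was at 1.29, 1.48, 0.682 and 0.886 CPM in proximal Scramble-sgRNA and 16.3, 6.45, 12.2 and 7.31 CPM in distal Scramble-sgRNA, and at 0.348, 0.687, 0.52 and 0.635 CPM against 52.4, 22.3, 63.6 and 40.6 CPM with Cdx2-sgRNA. The control difference was -3.61 ± 0.58 in WENR-minus (log2, edgeR adjusted p = 0.00383), and the Cdx2-sgRNA one -6.46 ± 0.64 (edgeR adjusted p = 1.72e-05). Distal B3gnt5 was at 92.7, 67.2, 81.3 and 56.5 CPM with Scramble-sgRNA and 106, 51, 159 and 49.7 CPM with Cdx2-sgRNA, above each proximal library given earlier, and was called in all 4 comparisons. With Scramble-sgRNA the WENR-plus call was lost without any 1 of its 4 libraries (edgeR adjusted p up to 0.192) and the WENR-minus call without proximal replicate 2 (0.104). B3gnt2, the main polylactosamine enzyme, was at 39.4 and 34.6 CPM in proximal and 100 and 119 CPM in distal Scramble-sgRNA WENR-minus (log2 fold change -1.57 ± 0.22, edgeR adjusted p = 0.00174). Fut9, the Lewis x enzyme, was at 1.86, 0.178, 0.186 and 0 CPM in proximal and 16.7, 15.4, 1.46 and 2.15 CPM in distal Scramble-sgRNA libraries, and at 1.62, 1.37, 1.41 and 0.476 CPM against 14.7, 10, 2.88 and 1.25 CPM with Cdx2-sgRNA. The proximal and distal Scramble-sgRNA libraries of a medium did not overlap, but the Fut9 calls (-3.93 in WENR-plus, at least 7.86-fold lower in WENR-minus) were lost without single libraries, with edgeR adjusted p up to 0.176 and 0.23. Fut1 was higher in proximal Scramble-sgRNA WENR-minus (log2 fold change 1.59 ± 0.37, edgeR adjusted p = 0.0209, up to 0.141 without proximal replicate 2).

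No GalNAc-transferase, core 1 or branching member was called between regions in Scramble-sgRNA organoids. Galnt3, which acts on FGF23 and mucins, was at 137, 135, 314 and 217 CPM in proximal and 232, 151, 398 and 525 CPM in distal Scramble-sgRNA, and at 137, 109, 146 and 179 CPM against 256, 184, 405 and 303 CPM with Cdx2-sgRNA. Gcnt3 was higher in each proximal Scramble-sgRNA library than in the distal ones of its medium, with log2 differences of 1.21 and 1.34 that were not called (edgeR adjusted p = 0.0806 and 0.139). In Cdx2-sgRNA organoids 6 GalNAc-transferases, both core 1 genes and 4 galactosyltransferases were called lower in the proximal WENR-minus libraries, of 11, 2 and 6 tested and beside 16.5% of all genes. Of these 12 calls, those of Galnt3, Galnt6, Galnt10, Galnt12, C1galt1c1 and B4galt6 were each lost without at least 1 library, and that of B4galt6 also with the replicate number as a block. The WENR-minus Scramble-sgRNA count was 4 and 6 without proximal replicate 2 and distal replicate 1. The WENR-plus Scramble-sgRNA count was 3 and 2 without proximal replicates 1 and 2, and 2 and 4 without distal replicates 1 and 2, and the Cdx2-sgRNA WENR-plus count was 14 without distal replicate 1. The goblet cell markers summed to 5926 to 11098 CPM in distal and 6337 to 7559 CPM in proximal Scramble-sgRNA WENR-minus libraries, which overlap. The 4 enteroendocrine markers were lower in proximal Scramble-sgRNA libraries of each medium, without overlap. In WENR-plus they summed to 84.5 and 63.4 CPM in proximal and 163 and 139 CPM in distal libraries. In WENR-minus they summed to 176 and 114 CPM against 377 and 255 CPM. In Cdx2-sgRNA organoids, over both media, the goblet cell markers summed to 38.3 to 74.2 CPM in proximal and 961 to 15811 CPM in distal libraries. The enteroendocrine markers summed there to 0.74 to 1.86 and 106 to 328 CPM. The part of these markers in the result was not tested.

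**Figure D4:**
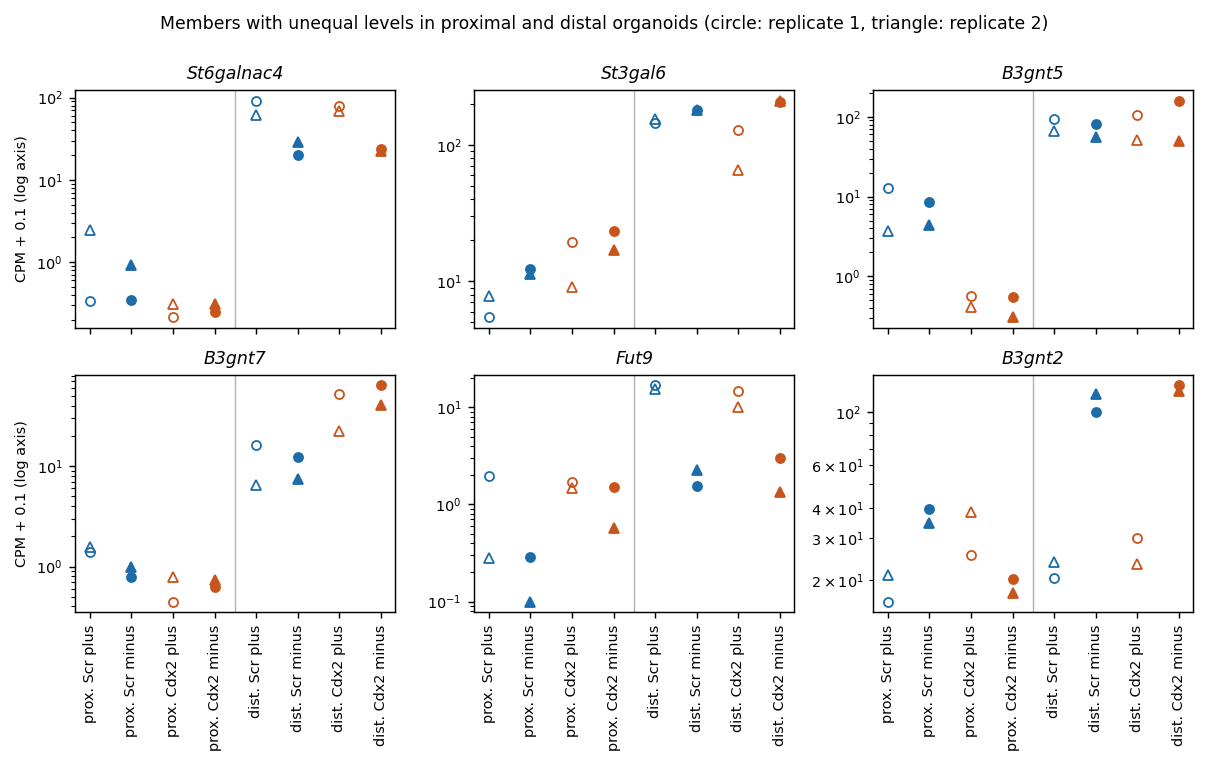
Level in each library (CPM + 0.1, log axis) of 6 members called lower in proximal organoids; blue is Scramble-sgRNA, orange Cdx2-sgRNA, open symbols WENR-plus, filled symbols WENR-minus, and a vertical line parts proximal from distal libraries. St6galnac4 stays at or below 2.37 CPM in every proximal library and at or above 19.9 CPM in every distal one.

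The third comparison sets WENR-minus against WENR-plus within each line. St3gal4, St6galnac6, Gcnt1, Gcnt2 and B3gnt3 rose in proximal Scramble-sgRNA and in both distal lines, and Fut1 fell in all 4 lines. In proximal Scramble-sgRNA 7 members rose and 3 fell (8.73% and 8.24% of all genes), in distal Scramble-sgRNA 10 rose and 5 fell (12.2% and 14.2%), and in distal Cdx2-sgRNA 11 rose and 5 fell (14.9% and 18.1%). In proximal Cdx2-sgRNA 2 rose and 2 fell (3.42% and 2.98%). The members' medians were 0.13, 0.22, 0.21 and 0.12 in this order, against -0.055, -0.11, -0.097 and -0.029 over all genes, and 0.18 and 0 with members at the floor set to their bound in the distal and proximal Cdx2-sgRNA lines. With at least 10 reads in every library, where members near 0 in a group were untested, the counts were 4 in proximal Scramble-sgRNA and 9 in each distal line. With no filter the count was 8 in proximal Cdx2-sgRNA. Leaving out a library moved a count in each line: to 6 without proximal Scramble-sgRNA WENR-minus replicate 1, 9 without distal Scramble-sgRNA WENR-minus replicate 1, 10 without distal Cdx2-sgRNA WENR-plus replicate 2, and 1 and 2 without proximal Cdx2-sgRNA WENR-plus replicate 2 and WENR-minus replicate 2. With each culture as a block, since libraries of one culture deviated together, the proximal Cdx2-sgRNA count was 9 in place of 4. Colonocyte markers summed to 137 to 662 CPM in WENR-plus libraries and 6854 to 16236 CPM in the WENR-minus libraries outside proximal Cdx2-sgRNA. The goblet cell sums were also higher there, at 5904 to 15811 CPM. In WENR-plus libraries outside proximal Cdx2-sgRNA they were 898 to 4165 CPM. The goblet genes did not all move together. In distal Scramble-sgRNA Muc2, Tff3, Fcgbp, Clca1 and Zg16 were higher in WENR-minus. Atoh1 went from 31 and 28 to 17.5 and 16.8 CPM, and Agr2 from 561 and 364 to 370 and 288 CPM. The 5 stem cell markers summed to 324 to 546 CPM in WENR-plus and 92.2 to 193 CPM in WENR-minus libraries. The 3 proliferation markers summed to 967 to 1357 CPM in WENR-plus and 194 to 509 CPM in WENR-minus outside proximal Cdx2-sgRNA, and there to 641 and 535 CPM, then 566 and 685 CPM. The part of these markers in the result was not tested.

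St3gal4 (chr9:35046576-35119268) had the largest rise of the members in proximal and distal Scramble-sgRNA and in distal Cdx2-sgRNA organoids, by 3.28 ± 0.50, 3.78 ± 0.51 and 3.41 ± 0.50 on the log2 scale (edgeR adjusted p = 0.001, 0.000224 and 0.000205). The library values given above show no overlap between media in these lines. In proximal Cdx2-sgRNA its log2 fold change was -0.63 ± 0.46 (edgeR adjusted p = 0.415). St6galnac6 rose in the same 3 lines (2.73, 2.29 and 2.37), calls that held whichever library was left out. St3gal3 rose there too (1.18, 1.34 and 1.66), but its call was lost without any 1 of 3 libraries in proximal Scramble-sgRNA (edgeR adjusted p up to 0.102) and without WENR-minus replicate 1 in distal Scramble-sgRNA (0.0593). Summed per length, the alpha-2,3 class was at 167, 132, 1103 and 799 TPM in proximal Scramble-sgRNA, 77.1, 109, 81.6 and 82.5 TPM in proximal Cdx2-sgRNA, 376, 238, 1744 and 1616 TPM in distal Scramble-sgRNA and 390, 212, 1798 and 1434 TPM in distal Cdx2-sgRNA.

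Of the branching enzymes, Gcnt1 was at 174 and 81.4 CPM in proximal Scramble-sgRNA WENR-minus and 268 and 178 CPM in proximal Cdx2-sgRNA WENR-minus. Distal organoids had 93.9, 117, 228 and 370 CPM with Scramble-sgRNA and 180, 152, 559 and 432 CPM with Cdx2-sgRNA. It rose in the 3 lines other than proximal Cdx2-sgRNA, by 1.83 ± 0.43, 1.50 ± 0.42 and 1.58 ± 0.42 (log2, edgeR adjusted p = 0.00895, 0.0146 and 0.00941, up to 0.0944, 0.109 and 0.066 when a library was left out). Gcnt2 was at 26.2 and 28.6 CPM in proximal Scramble-sgRNA WENR-minus and 32 and 31.2 CPM in proximal Cdx2-sgRNA WENR-minus, and rose from 2.2 and 2.96 to 19.7 and 12.5 CPM in distal Scramble-sgRNA and from 1.78 and 4.02 to 22.8 and 25.8 CPM in distal Cdx2-sgRNA. Its rises of 2.45 ± 0.34, 2.64 ± 0.35 and 3.06 ± 0.36 held without each library (edgeR adjusted p = 0.000695, 0.000225 and 4.77e-05). Gcnt3 was the branching enzyme that rose in proximal Cdx2-sgRNA (log2 fold change 2.14 ± 0.41, edgeR adjusted p = 0.00823, up to 0.0716 without WENR-plus replicate 2), and it rose in both distal lines (1.13 and 1.20), where each call was lost without WENR-plus replicate 2 or WENR-minus replicate 1 (edgeR adjusted p up to 0.43 and 0.182). B3gnt3 rose in the same 3 lines as Gcnt1 (1.40, 1.40 and 1.35), calls that held whichever library was left out. In proximal Cdx2-sgRNA the log2 fold change of B3gnt3 was 0.85, short of the fold threshold (edgeR adjusted p = 0.0118), and that of Gcnt1 was 0.21 (edgeR adjusted p = 0.807), and neither was called for a difference between guides (edgeR adjusted p = 0.238 and 0.141). B3gnt2 (2.31 and 2.24) and B4galt1 (1.50 and 1.46) rose in both distal lines. Galnt3 rose in distal Scramble-sgRNA (1.27 ± 0.27, edgeR adjusted p = 0.00339) and C1galt1 in distal Cdx2-sgRNA (1.11 ± 0.25, edgeR adjusted p = 0.00352, with a log2 fold change of 0.82 at the lowest when a library was left out).

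Fut1 fell in all 4 lines, by 1.83 ± 0.35 in proximal Scramble-sgRNA, 1.60 ± 0.36 in proximal Cdx2-sgRNA, 2.45 ± 0.37 in distal Scramble-sgRNA and 4.92 ± 0.45 in distal Cdx2-sgRNA (log2, edgeR adjusted p = 0.00303, 0.0152, 0.000441 and 1.3e-05). The proximal Cdx2-sgRNA call was lost without either WENR-plus library or WENR-minus replicate 2 (edgeR adjusted p up to 0.0921), and the other 3 held whichever library was left out. Fut9 fell in both distal lines (-3.14 and -2.57, with edgeR adjusted p up to 0.0855 and 0.155 when a library was left out), and its call in proximal Scramble-sgRNA rests on libraries within 3 reads of 0 or overlapping between media. St6galnac4 fell in both distal lines as well (-1.65 and -1.70), calls that held in no fit with a library left out. In proximal Cdx2-sgRNA B4galt5 fell (-1.56 ± 0.22, edgeR adjusted p = 0.0022), a call that held without each library, and Galnt10 rose (1.49 ± 0.38, edgeR adjusted p = 0.0247, up to 0.172 without WENR-plus replicate 2).

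**Figure D5:**
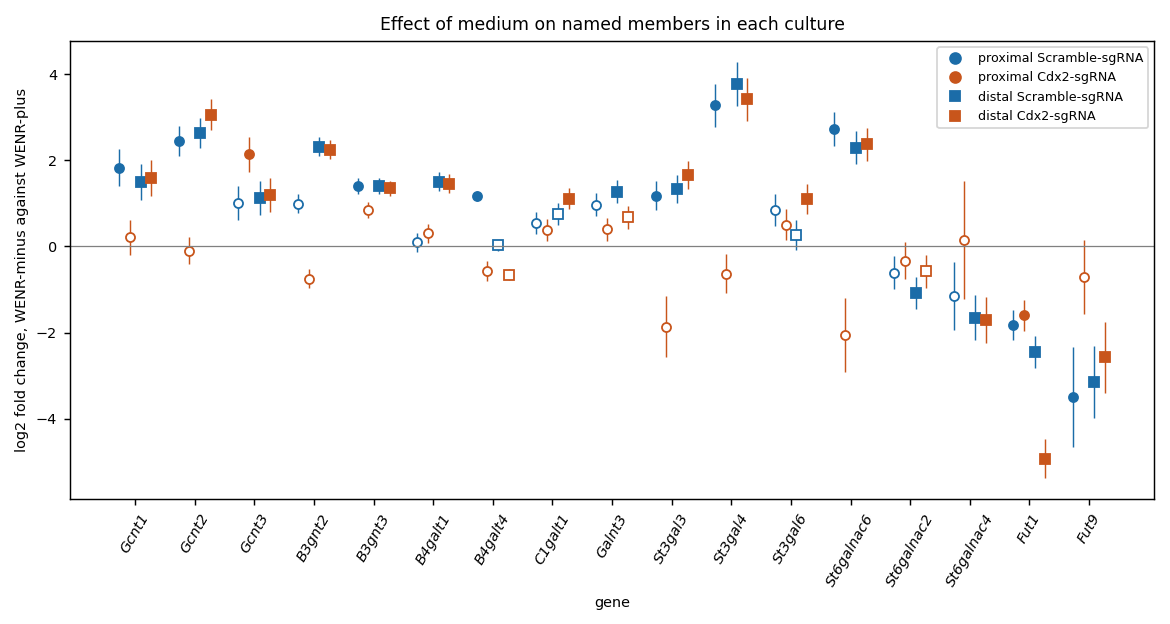
Log2 fold change of WENR-minus against WENR-plus, with its SE as a bar, for 17 members in the 4 lines; circles are proximal and squares distal organoids, blue Scramble-sgRNA and orange Cdx2-sgRNA, and filled symbols are calls. St3gal4 stands between 3.28 and 3.78 in 3 lines and at -0.63 in proximal Cdx2-sgRNA.

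Whether the response to the medium differed with the guide was tested as a difference of log2 fold changes. In proximal organoids 6 members had a lower log2 fold change with Cdx2-sgRNA than with Scramble-sgRNA, beside 3.6% of all genes called in either direction, and the members' median difference was -0.20 against 0.0011 over all genes. They were St6galnac6 (a fitted -4.79 that depends on the prior count, since its proximal Cdx2-sgRNA WENR-minus libraries held no more than 3 reads), St3gal4 (-3.91 ± 0.67), Gcnt2 (-2.54 ± 0.46), B3gnt2 (-1.75 ± 0.31), B4galt4 (-1.74 ± 0.26) and B4galt5 (-1.73 ± 0.29), with edgeR adjusted p between 0.017 and 0.0231. A lower value was not always a smaller response: B4galt5 had a log2 fold change of 0.18 with Scramble-sgRNA and fell with Cdx2-sgRNA (-1.56), and B3gnt2 was at 16.2, 21, 39.4 and 34.6 CPM with Scramble-sgRNA and 25.3, 38.3, 20.2 and 17.6 CPM with Cdx2-sgRNA. Each of the 6 calls was lost in some fit with a library left out (edgeR adjusted p up to 0.0674 to 0.0886), and the count was 1 without Scramble-sgRNA WENR-plus replicate 1 and 0 without Scramble-sgRNA WENR-plus replicate 2, Scramble-sgRNA WENR-minus replicate 1 or Cdx2-sgRNA WENR-minus replicate 2. With each culture as a block it was 13, and with no filter on low counts 15. In distal organoids edgeR called 0 members, beside 0% of all genes, 3 had an unadjusted p under 0.05, DESeq2 called 2, the fit with no filter 2 and the culture block 1. Between regions of Scramble-sgRNA organoids 1 member was called, B4galt4 (1.14 ± 0.17 more in proximal, edgeR adjusted p = 0.0454, without a value at the 10-read minimum), beside 0.0719% of all genes. That count was 0 without any one of its 8 libraries, with RLE size factors, with length-scaled counts and with at least 10 reads in every library, 3 with DESeq2 or the culture block, and 7 with no filter.

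The supply of sugar donors and the enzymes outside the naming rule were read from lists. Of 27 genes for nucleotide sugar synthesis, Golgi transport and sulfate activation, all tested, 14 fell and 1 rose with Cdx2-sgRNA in proximal WENR-minus and 7 fell and 0 rose in WENR-plus, with medians of -1.2 and -0.50. The shares of all genes that fell and rose were 12.1% and 9.04% for WENR-minus, against 8.94% and 6.93% for WENR-plus. In distal WENR-minus organoids 2 of the 27 fell, beside 3% of all genes. Papss2, which makes the sulfate donor, was at 334, 159, 842 and 482 CPM in proximal Scramble-sgRNA and 5.1, 3.91, 6.38 and 3.54 CPM in proximal Cdx2-sgRNA (log2 fold changes -5.77 ± 0.51 and -7.07 ± 0.54, edgeR adjusted p = 2.67e-05 and 5.12e-06). In distal organoids it was at 420, 363, 645 and 1094 CPM against 239, 149, 254 and 291 CPM and fell in WENR-minus (-1.67 ± 0.42, edgeR adjusted p = 0.0304). Gne, the first enzyme of sialic acid synthesis, was at 172, 160, 127 and 118 CPM against 29.7, 23.8, 19.4 and 16.6 CPM, and Slc35a1, the CMP-sialic acid transporter, at 322, 379, 181 and 255 CPM against 65.5, 42.1, 54.3 and 28.7 CPM, each called in both media. Of 12 further chain and capping enzymes, 11 tested, 5 fell and 1 rose in proximal WENR-minus, and 3 fell and 2 rose in WENR-plus, beside the same shares of all genes (12.1% and 9.04%, then 8.94% and 6.93%). B4galnt2, the Sda blood group enzyme of the colon, was at 220, 222, 644 and 535 CPM in proximal Scramble-sgRNA and 2.67, 2.33, 2.23 and 1.69 CPM in proximal Cdx2-sgRNA (log2 fold change -8.24 ± 0.32 in WENR-minus, edgeR adjusted p = 4.7e-08), against 255, 188, 723 and 957 CPM and 148, 167, 263 and 402 CPM in distal organoids. It was the 1 gene of this list that fell in distal WENR-minus (-1.34 ± 0.23, edgeR adjusted p = 0.00784). In proximal Cdx2-sgRNA organoids a rise of St8sia6 in both media rested on replicate 1, at 205 and 1002 CPM, where replicate 2 had 1.69 and 16.7 CPM.

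In a few members the replicates of a group lay far apart. Fut4, a myeloid-type fucosyltransferase, was at 153 and 64.8 CPM in distal Cdx2-sgRNA replicate 1 and 2.43 and 2.26 CPM in replicate 2, beside 2.5, 7.47, 1.15 and 2.58 CPM in distal Scramble-sgRNA. It was at 0.287, 0.0592, 0.434 and 0.0521 CPM in proximal Scramble-sgRNA and 0.29, 0.0529, 1.41 and 0.37 CPM in proximal Cdx2-sgRNA, and its call between regions in Cdx2-sgRNA was lost without distal replicate 1 (edgeR adjusted p = 0.591 in WENR-minus and 0.182 in WENR-plus). Galnt6 was at 0.334 and 0.93 CPM in proximal Scramble-sgRNA replicate 1 and 16.5 and 20.4 CPM in replicate 2. In distal organoids its replicate 1 libraries had 1.5 and 1.23 CPM with Scramble-sgRNA and 1.78 and 4.06 CPM with Cdx2-sgRNA, against 13.3, 67.7, 8.2 and 41.3 CPM in replicate 2. Replicate 2 was thus the higher in these 6 groups, by 4.61 to 55 times, while the proximal Cdx2-sgRNA libraries had 0.348, 0.159, 0.0742 and 0.159 CPM. Chst8, which sulfates terminal GalNAc, was at 0.696 and 1.78 CPM in proximal Cdx2-sgRNA replicate 1 and 8.46 and 15 CPM in replicate 2. It was at 0 to 0.418 CPM in distal Cdx2-sgRNA libraries and was called higher in proximal ones (log2 fold change 5.02 ± 1.53 in WENR-minus, edgeR adjusted p = 0.0183, and at least 4.05-fold in WENR-plus, edgeR adjusted p = 0.0247), calls lost without proximal replicate 2 (0.197 and 0.25) or either distal library. In these cases both media of one culture were high or low together.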

How the data were processed

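RNA of 16 organoid libraries was sequenced as stranded total RNA. The authors estimated transcript abundance with Salmon 1.1.0 against GENCODE vM23, and the deposited files give an estimated count, a TPM value and an effective length (in bases) per transcript. Here the deposited estimated counts were summed to genes with the vM21 annotation of GRCm38 (884 of 140748 transcripts, 0.257 to 0.509% of reads, did not match) and rounded, and the deposited TPM values were summed to genes for levels compared per length. CPM is scaled to the TMM-normalised library total.

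All 16 libraries were fitted together in edgeR 4.0.16 (R 4.3.3), 1 coefficient for each of the 8 groups, after edgeR's filter on low counts and TMM scaling, with a prior count of 0.125, quasi-likelihood tests on 8 residual degrees of freedom and Benjamini-Hochberg adjustment over 15289 genes. Differences between effects were tested as contrasts of the same fit. A gene with no more than 3 reads in each library of a group was given as a bound against that floor. The fit was tested on simulated data.

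The members and gene lists were chosen with earlier results of these data known. Named members were 20 enzymes picked for their role, and any among the 3 largest fold changes of the called members of a comparison whose higher group averaged 5 CPM or more. Alternatives were RLE size factors, other filters, DESeq2 1.42.0, length-scaled counts, replicate and culture blocks and leaving out each library. Libraries of one culture in the 2 media deviated from their group means together (correlation 0.281 to 0.589 in 4 of 4 sets, against -0.0594 to 0.189 between cultures), so a culture block was fitted as an alternative for the medium. RLE and length-scaled counts shifted the median of all genes by at most 0.064 and 0.079 (log2). Counts and CPM carry counting error set by library totals, and no interval is given for single libraries.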

Additional observations from a re-analysis of the deposited data

Results flagged for a closer look

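Members are listed here where the effect of one factor differed between groups by a test of the difference itself, given as a difference of log2 fold changes ± SE from the edgeR fit with adjusted p over all genes tested. For Cdx2-sgRNA against Scramble-sgRNA, proximal minus distal, 16 members were called in WENR-minus: B3gnt2 (-1.16 ± 0.30), B3gnt5 (-4.90 ± 1.14), B3gnt7 (-2.85 ± 0.84), B4galt1 (-1.19 ± 0.31), B4galt4 (-6.93 ± 0.22), B4galt5 (-3.14 ± 0.30), B4galt6 (-1.30 ± 0.32), C1galt1c1 (-1.45 ± 0.43), Chst4 (-4.16 ± 1.01), ENSMUSG00000110170 (-3.11 ± 0.98), Galnt12 (-2.66 ± 0.75), Galnt5 (-5.10 ± 0.92), St3gal3 (-6.47 ± 0.64), St3gal4 (-4.20 ± 0.67), St6galnac2 (-3.12 ± 0.57) and St6galnac6 (-8.39 ± 0.74). Their edgeR adjusted p lay between 1.04e-08 and 0.0494. Calls lost with length-scaled counts included those of B3gnt2, B3gnt7, B4galt1 and C1galt1c1. In WENR-plus the 16 members called were B3gnt5 (-4.36 ± 1.09), B3gnt7 (-3.10 ± 0.80), B4galt1 (-1.45 ± 0.31), B4galt4 (-5.86 ± 0.21), B4galt5 (-1.63 ± 0.28), Chst4 (-6.28 ± 1.12), ENSMUSG00000110170 (-3.77 ± 0.96), Galnt10 (-2.51 ± 0.52), Galnt12 (-2.88 ± 0.75), Galnt5 (-5.27 ± 0.97), Galntl6 (-3.56 ± 0.69), Gcnt2 (2.57 ± 0.49), St3gal1 (-2.19 ± 0.53), St3gal3 (-3.12 ± 0.54), St6galnac2 (-2.90 ± 0.56) and St6galnac6 (-3.52 ± 0.63), with edgeR adjusted p between 1.08e-07 and 0.0466. The values of St3gal3 and St6galnac6 in WENR-minus, and of ENSMUSG00000110170 in WENR-plus, come from proximal Cdx2-sgRNA libraries with no more than 3 reads and depend on the prior count.

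For WENR-minus against WENR-plus, Cdx2-sgRNA minus Scramble-sgRNA in proximal organoids, the members called were B3gnt2 (-1.75 ± 0.31), B4galt4 (-1.74 ± 0.26), B4galt5 (-1.73 ± 0.29), Gcnt2 (-2.54 ± 0.46), St3gal4 (-3.91 ± 0.67) and St6galnac6 (-4.79 ± 0.91), with edgeR adjusted p between 0.017 and 0.0231. The value of St6galnac6 is again a fitted one that depends on the prior count, from the same proximal Cdx2-sgRNA WENR-minus libraries with no more than 3 reads. For the same contrast in Scramble-sgRNA organoids, proximal minus distal, the member called was B4galt4 (1.14 ± 0.17), with an edgeR adjusted p of 0.0454. No group had 4 libraries or more, so single libraries were not tested for standing apart.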

How the results depend on the processing

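Of 196 calls of single members, 103 held in every alternative that gave a value, and none reversed in direction. DESeq2 kept 195 of them, RLE size factors 193, no filter on low counts 191, length-scaled counts 175, and a minimum of 10 reads in every library 90 of 93, with 103 left without a value. Fits without 1 library kept 642 of 940, and with 2 libraries a group the lone library left was assumed to vary like the other groups. Low counts limit these data, since 3 reads or fewer give no fold change.

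Counts of members called are given in the order proximal Scramble-sgRNA, proximal Cdx2-sgRNA, distal Scramble-sgRNA and distal Cdx2-sgRNA for the medium, proximal WENR-minus, proximal WENR-plus, distal WENR-minus and distal WENR-plus for Cdx2 editing, and Scramble-sgRNA WENR-minus, Scramble-sgRNA WENR-plus, Cdx2-sgRNA WENR-minus and Cdx2-sgRNA WENR-plus for the region. Without 1 library they ranged from 6 to 10, 1 to 6, 9 to 15 and 10 to 17 for the medium, 15 to 22, 17 to 21, 1 to 4 and 0 to 1 for Cdx2 editing, and 4 to 9, 2 to 4, 21 to 28 and 14 to 23 for the region. For the difference of the Cdx2 effect between regions they ranged from 7 to 13 in WENR-minus and 7 to 14 in WENR-plus. For the difference of the medium effect they ranged from 0 to 7 between guides in proximal organoids, 0 to 0 in distal organoids and 0 to 0 between regions.

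With at least 10 reads in every library, where fewer genes are tested, the counts that moved were 4, 9 and 9 for the medium (not proximal Cdx2-sgRNA), 8, 10, 1 and 0 for Cdx2 editing, 3, 1, 15 and 9 for the region, 8 and 8 for the Cdx2 effect between regions and 0 for the medium effect between regions. With no filter they were 8 for the medium in proximal Cdx2-sgRNA, 3 for Cdx2 editing in distal WENR-plus, 19 and 16 for the region in Scramble-sgRNA, 27 and 27 for the Cdx2 effect between regions, and 15, 2 and 7 for the medium effect between guides in proximal and distal organoids and between regions. DESeq2 gave 2 and 3 for the medium effect between guides in distal organoids and between regions, and RLE size factors and length-scaled counts each gave 0 for the latter. The cause of the shifts other than the 10-read minimum was not tested.

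With the replicate number as a block the counts were 11, 5, 17 and 16 for the medium, 23, 23, 4 and 1 for Cdx2 editing, 13, 8, 29 and 25 for the region, 16 and 17 for the Cdx2 effect between regions and 8, 0 and 1 for the medium effect, none moved by over 1.5 times, and 193 of 196 calls were kept. With each culture as a replicate block, which can be fitted for the medium only, the counts that moved were 9 for proximal Cdx2-sgRNA and 13, 1 and 3 for the medium effect, and all 52 calls it could test were kept.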
